A study of Mus musculus with 78 samples.

Results

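The region described here is a 930 kb window on mouse chromosome 18, chr18:37080000-38010000 (mm9), given as the locus of the clustered protocadherins. It was divided into 1 kb bins, and a bin was kept when at least 5 of its CpGs were covered by at least 1 bisulfite read. Of the 930 bins of the window, 916 held a CpG and 530 were kept, out of 1421567 such bins in the whole table. The comparison set was the 49934 kept bins elsewhere on the same chromosome, read against the window at the same number of covered CpGs. No measured methylation level entered the choice of the window or of its bins.

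Clustered protocadherins are cadherin-family cell adhesion proteins best known from neurons, where each cell uses a small, variable set of isoforms as a surface identity. The genes stand in 3 tandem arrays, alpha, beta and gamma. In the alpha and gamma arrays each variable first exon has its own promoter and is spliced to shared constant exons, while beta genes are single-exon. Promoter choice is known to involve CpG-rich promoters, DNA methylation set by Dnmt3b, binding of Ctcf and cohesin, and repression by Smchd1. The RefSeq gene table (GRCm38.p6) was used for names and order only. It held 58 of the 59 clustered protocadherin symbols of the expression tables, with 14 alpha, 22 beta and 22 gamma genes in that order along the chromosome. Bins were not assigned to genes or exons, because no annotation of the mm9 build was used.

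The series has 78 libraries from mouse embryos around implantation and gastrulation: 39 by STEM-seq (a bisulfite sequencing method for small numbers of cells), 30 by RNA-seq, 7 by Hi-C and 2 by MethylC-seq. The methylation table used here merges 3 STEM-seq libraries of E6.5 epiblast, the pluripotent layer that gives rise to the embryo proper, from Tet1/2 double knockout embryos. These came from intercrosses of Tet1+/-/Tet2-/- mice (alleles Tet1tm1.1Jae and Tet2tm1.1Iaai). The strain is labelled C57BL/6N x DBA, and the extraembryonic part of each embryo was used for genotyping. Tet1 and Tet2 encode dioxygenases that oxidise 5-methylcytosine, so the cells lack 2 of the 3 Tet enzymes, and Tet3 was not targeted. Methylation of wild-type epiblast was not analysed here, so what these levels owe to the loss of Tet1 and Tet2 cannot be told. The RNA libraries are all wild type (C57BL/6N x DBA/2N), 2 per group in 15 groups: the inner cell mass of E3.5 and of E4.0 embryos, E3.5 trophectoderm, epiblast and, separately, visceral endoderm at E5.5 and at E6.5, and 4 tissues at E7.5 (endoderm, mesoderm, ectoderm and primitive streak). The remaining 4 groups are embryos flushed at E4.5 and grown in culture, taken whole after 1 or 2 days, or as epiblast and as visceral endoderm after 4 days. The column headers of the 1 and 2 day libraries read E40, so their day of flushing is uncertain. None of the RNA libraries lacks Tet1 or Tet2. RNA of the knockout embryos was not analysed here, so neither the knockout nor the tissue label of the methylation table was checked.

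Depth was low. The window held 11206 CpGs, of which 8485 (75.7%) had a read, with a mean of 2.21 reads per CpG against 2.28 elsewhere on the chromosome. Because the 3 libraries were merged before deposit, no spread between embryos can be given. Intervals in brackets are 95% Wilson intervals. They cover counting error only, since reads without molecular identifiers are not independent molecules, and no test between conditions was possible for methylation. Intervals of shares of bins also treat neighbouring bins as independent.

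Over its 530 bins the window was methylated at 50.3% of reads (49.6 to 51.0), against 82.4% (82.4 to 82.5) elsewhere on the chromosome and 81.1% over the whole table. Part of this gap is composition: 109 window bins (20.6%) had over 20 covered CpGs, against 2.73% of bins elsewhere. CpG-rich sequence is commonly unmethylated in mammals, so levels were read within classes of CpG number. In bins of 5 to 10 covered CpGs the window stood at 73.7% (72.5 to 74.8) and the rest of the chromosome at 86.2%. At 11 to 20 CpGs the values were 60.9% (59.6 to 62.2) and 84.7%. At 21 to 40 CpGs they were 33.2% (32.1 to 34.3) and 57.8%. The order then turned over: at 41 to 60 CpGs the 22 window bins stood at 27.3% (25.7 to 29.0) and the 158 bins elsewhere at 9.17% (8.76 to 9.61). The 2 window bins with over 60 CpGs stood at 9.45% (6.74 to 13.1), against 4.90% (4.49 to 5.33) in 66 bins elsewhere. Sparse and middling bins were thus less methylated than like bins on the rest of the chromosome, and the most CpG-dense bins were more methylated. Like bins share the number of covered CpGs, not of all CpGs. At 41 to 60 covered CpGs mean depth per listed CpG was 2.35 reads in the window and 1.62 elsewhere. Bins elsewhere may therefore hold more uncovered CpGs, and the turn of the order was not rechecked with all CpGs counted. Against the flanks, each as long as the window, the middling class did not clearly differ. Flank bins of 21 to 40 CpGs stood at 35.2% (33.7 to 36.7), an interval overlapping that of the window. Their median bin was lower, 21.6% against 30.6% in the window. The order held in the flanks at 5 to 10 CpGs (84.5%), 11 to 20 (79.9%) and 41 to 60 (10.4%).

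**Figure D1:**
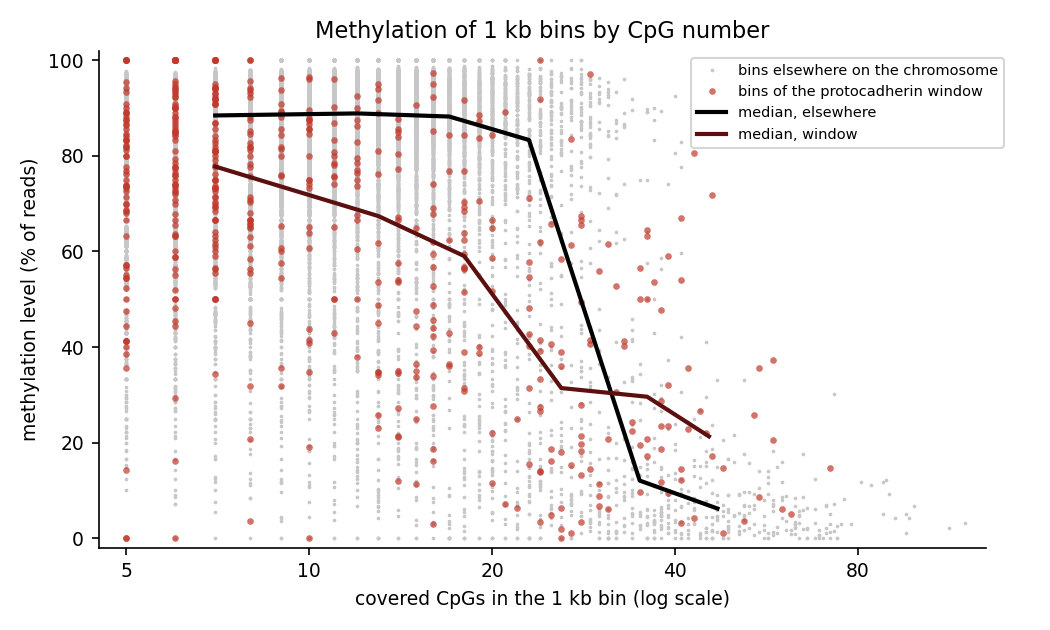
Each point is a 1 kb bin, placed by its number of covered CpGs (log axis) and its methylation level in percent of reads, with bins of the window in red and bins elsewhere on the chromosome in grey. Lines join medians over ranges of CpG number: the window's line falls gradually, while the line for the rest stays near 88% up to about 20 CpGs, then drops below that of the window.

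Matching each window bin to the mean level of bins elsewhere with exactly the same number of covered CpGs gave a mean difference of -13.9 percentage points (62.3% against 76.2%), and all 530 bins had a match. Of these bins, 368 (69.4%) lay below the mean for their CpG number, where 40.6% of the bins elsewhere lay below theirs. By class the matched difference was -11.9 points at 5 to 10 CpGs, -23.4 at 11 to 20, -14.5 at 21 to 40, 15.2 at 41 to 60 and 8.07 over 60. The largest shortfall of the 5 classes was therefore in bins of 11 to 20 CpGs, where 103 of 128 bins lay below the matched mean. At 41 to 60 CpGs, 14 of 22 lay above it. Against only the flanks, each as long as the window, the overall difference was -9.74 points over the 507 bins with a match. When a CpG needed at least 5 reads to count, it was -27.5 points over 80 bins. The size of the difference thus depended on the bins compared, while the window was lower in each of the 12 other settings tried.

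The same length of sequence was then laid along the rest of the chromosome. Of 95 windows of 930 kb with at least 100 kept bins, counting this one, the protocadherin window had the lowest matched difference. The other windows ranged from -4.00 to 3.35 points with a median of 0.22. It also held the most bins over 20 CpGs, 109 against at most 47 and a median of 12 in the others. The windows directly before and after it stood at -3.49 and -3.50 points, with 34 and 42 such bins. This is a description of 1 chromosome in 1 merged table.

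Among CpG-dense bins, those over 20 covered CpGs, 29 of 109 in the window were methylated at 50% or more (26.6%, 19.2 to 35.6), where the background share elsewhere on the chromosome was 53.0% (722 of 1363 bins). High methylation was rarer still: 6 window bins (5.505%) reached 80%, against 39.6% elsewhere. The direction of the first comparison turned with the density cutoff. Over 30 CpGs, 25% of 52 window bins were at 50% or more, against 11.6% elsewhere, and over 40 CpGs the shares were 4 of 24 (16.7%, 6.68 to 35.9) and 3 of 224 (1.34%, 0.457 to 3.86). The background changed as well: in the flanks 21 of 76 dense bins (27.6%) were at 50% or more, a share close to that of the window. With at least 3 reads per CpG the difference of shares was -4.93 points over 26 window bins, and with at least 5 reads only 4 window bins were left. Within dense bins the flanks and the window still differed in spread, with 25% of flank bins and 56.0% of window bins between 20% and 80%. Mean depth per listed CpG in bins over 40 CpGs was 2.32 reads in the window and 1.59 elsewhere, and the part of this in the comparison was not tested.

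Intermediate levels marked the window at every CpG number up to 60. In all, 297 of 530 bins (56.0%, 51.8 to 60.2) lay from 20% to under 80%, where 22.9% of bins elsewhere did. At 5 to 10 CpGs the shares were 50.2% and 23.7%, at 11 to 20 they were 69.5% and 20.0%, and at 21 to 40 they were 58.8% and 28.4%. Over 40 CpGs, 11 of 24 window bins (45.8%, 27.9 to 64.9) were intermediate, against a background of 7.14% elsewhere. The intervals of the window and of the rest did not overlap in any of these classes. Bins at 80% or more made up 33.4% of the window and 75.7% of the rest. In the flanks, 26.3% of 1451 bins were intermediate, near the share for the whole chromosome.

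**Figure D2:**
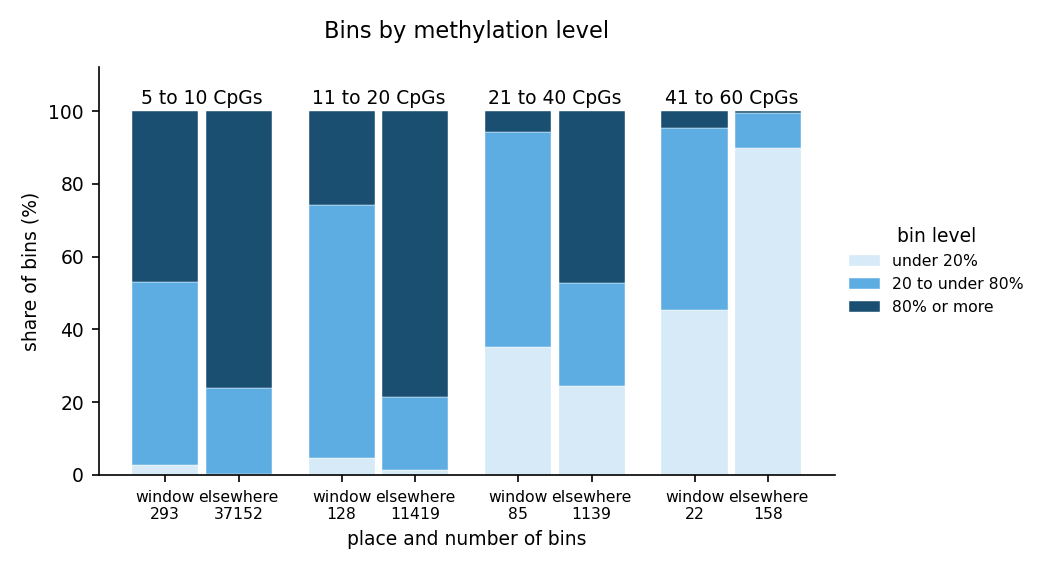
Stacked bars give the share of bins (vertical axis, %) under 20%, from 20% to under 80%, and at 80% or more, for the window and for the rest of the chromosome in 4 classes of covered CpG number; the number of bins is under each bar. The middle class is the larger one in the window in each of the 4 classes, for example 69.5% against 20.0% at 11 to 20 CpGs.

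Levels varied along the window. It was read in 10 segments of 93 kb, named by their distance from the window's start. Overall levels were 49.4% (47.8 to 51.0) in the first segment and 54.8% in the next, then between 60.2% and 68.6% in the 6 segments from 186 to 744 kb. They were lowest in the last pair, at 33.2% (31.9 to 34.5) for 744 to 837 kb and 41.5% (39.8 to 43.2) for 837 to 930 kb. CpG-dense bins sat mainly at the ends: 27 of 109 in the first segment, and 34 and 14 in the last pair. Between 186 and 744 kb each segment had 2 to 9 of them. At equal CpG number every segment was below the rest of the chromosome, from -5.55 points at 651 to 744 kb to -20.02 points at 744 to 837 kb. Segments 4 to 6 (279 to 558 kb), with only 13 dense bins, were at -15.9, -18.6 and -16.0 points.

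Dense bins differed more along the window than the overall level did. Those of the first segment averaged 44.3% and ran from 6.67% to 100%, with 12 of 27 at 50% or more and 5 under 20%. The 5 dense bins at 93 to 186 kb averaged 44.1%, and the 2 at 186 to 279 kb averaged 16.5% (1.09% and 32.0%). In the 5 segments from 279 to 744 kb the averages of dense bins lay between 30.3% and 57.4%. At 744 to 837 kb the 34 dense bins averaged 21.9%, with 19 under 20% and 3 at 50% or more. At 837 to 930 kb all 14 were under 21%, averaging 7.11%, with 13 under 20%. Sparse bins (5 to 20 CpGs) did not follow the same course: their mean was 61.4% in the first segment, 79.7% at 651 to 744 kb, 63.2% at 744 to 837 kb and 68.9% at 837 to 930 kb. In the last segment, therefore, nearly unmethylated dense bins stood among sparse bins with a median of 81.2%.

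**Figure D3:**
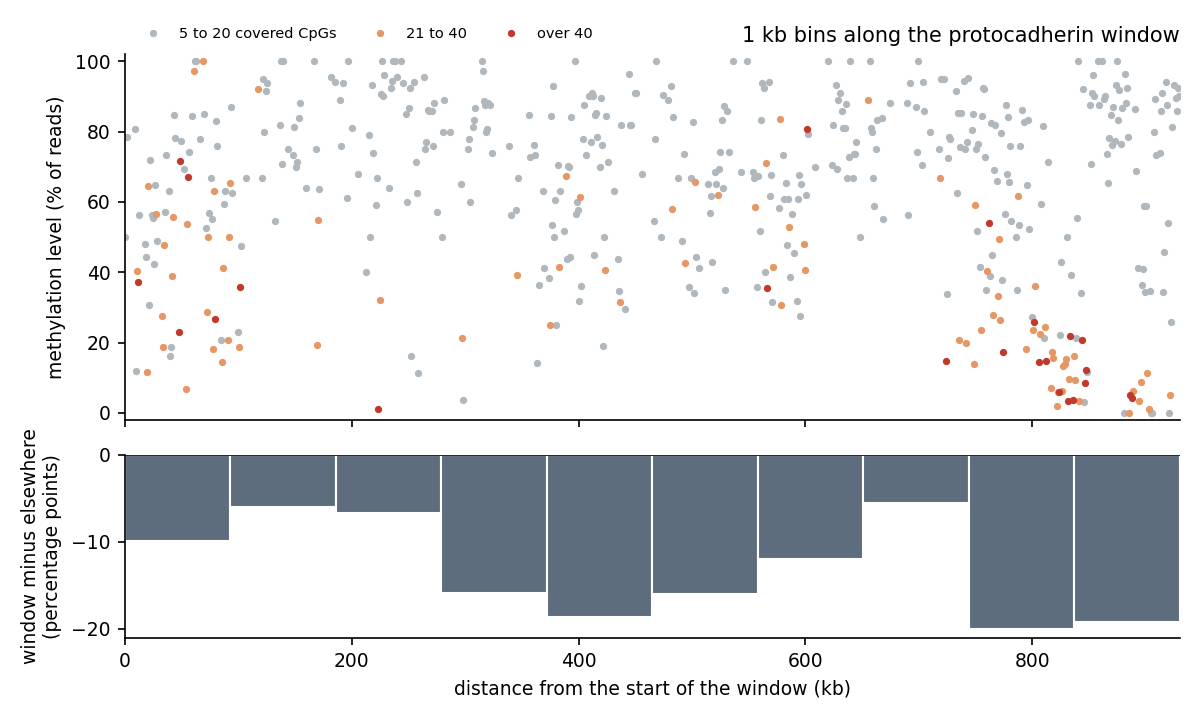
The upper panel places the 530 bins by distance from the start of the window (kb) and methylation level (% of reads), coloured by covered CpG number. The lower panel gives the mean difference in percentage points from bins elsewhere with the same CpG number in each 93 kb segment; all 10 bars are below 0, and bins over 20 CpGs near 0% gather after 800 kb.

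The 24 bins with over 40 covered CpGs show this most directly. The 10 with the most covered CpGs had from 48 to 72 of them and levels from 3.54% to 37.3%. A further bin tied at 48 CpGs, with fewer reads, stood at 1.09% and is given with the least methylated bins. At chr18:37091001-37092000, 11 kb into the window, 69 of 185 reads over 58 CpGs were methylated (37.3%, 30.7 to 44.5), where bins of 58 CpGs elsewhere averaged 6.82%. At chr18:37181001-37182000 the level was 35.7% (26.3 to 46.4) over 55 CpGs, where like bins elsewhere averaged 8.61%. At chr18:37881001-37882000 it was 25.9% (20.3 to 32.4) over 54 CpGs, where like bins elsewhere averaged 5.20%. The bin with the most covered CpGs, chr18:37892001-37893000 with 72, stood at 14.7% (9.89 to 21.2), against 2.32% in like bins.

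The others of these 10 bins stood from 3.54% to 20.6%, some below and some above like bins elsewhere. At chr18:37966001-37967000, with 62 CpGs, the level was 5.06% (2.68 to 9.33), against 1.26% in like bins. At chr18:37915001-37916000 it was 3.54% (1.804 to 6.83) over 52 CpGs, against 9.91%. At chr18:37903001-37904000 it was 6.06% (2.81 to 12.6) over 60, against 9.76%. At chr18:37926001-37927000, with 55 CpGs, it was 8.54% (5.40 to 13.3), against 8.61%. At chr18:37923001-37924000, with 58, it was 20.6% (15.02 to 27.7), against 6.82%. The tenth, chr18:37803001-37804000 with 48 CpGs, 723 kb into the window, stood at 14.7% (9.36 to 22.2), against 6.31%. High and low bins of this density could be neighbours: at chr18:37127001-37128000 the level was 22.9% (16.2 to 31.2) over 42 CpGs, and in the next kilobase it was 71.7% (63.7 to 78.6) over 46. The most methylated bin of over 40 CpGs, chr18:37681001-37682000, stood at 80.6% (74.4 to 85.7), where bins of 43 CpGs elsewhere averaged 10.2%. These 3 bins were named after their values were seen.

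Dense bins lay in 64 runs of adjacent kilobases, 33 of them single bins and the longest 4 kb. Elsewhere 79.5% of 1077 such runs were single bins, against 51.6% in the window, and the longest was 6 kb. The median level of a run was 37.0% in the window and 75.8% elsewhere. Among runs of 2 or more bins it was 32.9% over 31 runs, against 14.7% over 221 runs elsewhere, so the order of window and rest again turned with the extent of CpG-rich sequence.

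Bins under 20% numbered 56 of 530 (10.6%, 8.23 to 13.5), where 1.41% of bins elsewhere were that low. Among sparse bins of 5 to 10 CpGs the shares were 8 of 293 (2.73%, 1.39 to 5.29) and 0.18% (0.142 to 0.229). At 41 to 60 CpGs the order was the other way, 45.5% of 22 (26.9 to 65.3) and 89.9% of 158 (84.2 to 93.7). Of the 10 least methylated bins, 9 lay between 821 and 921 kb. At chr18:37965001-37966000 none of 74 reads over 26 CpGs was methylated, which allows a level of up to 4.93%, where bins of 26 CpGs elsewhere averaged 60.5%. Such a mean hides a wide spread: of the 1139 bins of 21 to 40 CpGs elsewhere, 24.3% were under 20% and 47.3% at 80% or more. At chr18:37982001-37983000, 1 of 84 reads was methylated (1.19%), and at chr18:37901001-37902000 2 of 98 were (2.04%). The exception in place was chr18:37303001-37304000, 223 kb from the start, with 1 methylated read of 92 over 48 CpGs (1.09%, 0.192 to 5.90).

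Of the other 6 least methylated bins, 4 held no methylated read but few reads: 18 at chr18:37984001-37985000 (up to 17.6%), 11 at chr18:38000001-38001000, 8 at chr18:37960001-37961000 and 5 at chr18:37985001-37986000 (up to 43.4%). At chr18:37925001-37926000 the level was 3.03% over 16 CpGs, and at chr18:37911001-37912000 it was 3.25% over 41. With 5 to 18 reads a bin, the first of these values are weakly held.

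Low bins were often adjacent. There were 12 runs of 2 or more neighbouring bins under 20%, covering 33 kb, and none was longer than 4 kb, while the longest elsewhere on the chromosome was 12 kb. The first, chr18:37119001-37121000, stood alone near the start of the window, at 17.4% (10.2 to 27.98). The other 11 lay from 816 kb on. The 3 of 4 kb were chr18:37906001-37910000 at 12.7% (9.87 to 16.2), chr18:37925001-37929000 at 9.31% (6.77 to 12.7) and chr18:37965001-37969000 at 4.13% (2.63 to 6.43). The runs at chr18:37896001-37899000, chr18:37901001-37904000 and chr18:37915001-37918000 were 3 kb long, at 14.5%, 4.73% and 7.07%. The remaining runs, each 2 kb, were chr18:37911001-37913000 at 6.59%, chr18:37974001-37976000 at 5.99%, chr18:37981001-37983000 at 6.395%, chr18:37984001-37986000 with 0 of 23 reads (up to 14.3%) and chr18:38000001-38002000 at 4.46%. The share of low bins found in runs was 58.9%, near the 62.0% elsewhere.

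Sparse bins of the window were lower where they stood near CpG-dense sequence, and 57.7% of them lay within 5 kb of a bin over 20 CpGs, against 14.8% elsewhere. At 1 kb from such a bin the level was 55.4% (53.8 to 56.9) in 105 window bins and 73.7% (73.3 to 74.0) elsewhere. At 2 to 3 kb it was 67.4% (65.6 to 69.2) and 84.9%, at 4 to 5 kb 68.5% (65.6 to 71.3) and 85.7%, and at 6 to 10 kb 75.2% (72.9 to 77.3) and 85.6%. Beyond 10 kb it was 80.04% (78.5 to 81.5) in 117 bins and 86.5% (86.4 to 86.5) elsewhere. The difference between window and rest was -18.3 points at 1 kb and -6.43 points beyond 10 kb. Elsewhere on the chromosome the level at 2 to 3 kb was already within 2 points of that beyond 10 kb, whereas in the window it was still lower at 4 to 5 kb than beyond 10 kb, with intervals that did not overlap. Within 1 kb the window bins held a median of 12 covered CpGs and those elsewhere 10, while farther out window bins had as many or fewer.

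**Figure D4:**
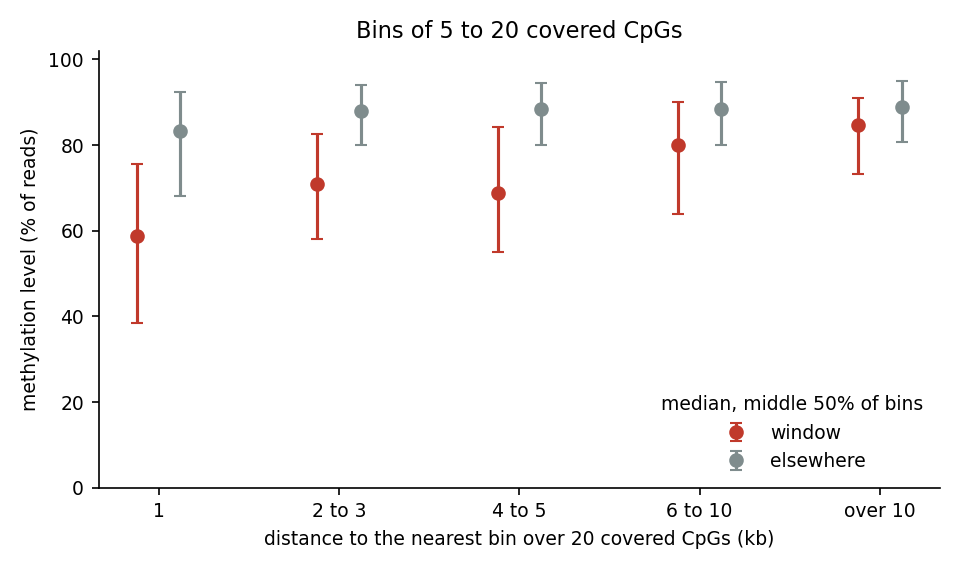
For bins of 5 to 20 covered CpGs, points give the median methylation level (% of reads) and bars the middle 50% of bins, by distance (kb) to the nearest bin over 20 covered CpGs, in the window (red) and elsewhere on the chromosome (grey). The medians of the window lie below those of the rest at each distance, 58.7% against 83.3% at 1 kb and 84.6% against 88.9% beyond 10 kb.

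Single CpGs with at least 5 reads, 1526 of them in the window, were used to see whether intermediate bins mix high and low CpGs or hold intermediate ones. In intermediate bins of 5 to 20 CpGs, 46.4% of 446 such CpGs were themselves from 20% to under 80%, 13.5% were under 20% and 40.1% were at 80% or more. Elsewhere the shares were 52.5%, 6.13% and 41.4%. In intermediate bins of 21 to 40 CpGs they were 50.5%, 26.2% and 23.3% over 202 CpGs, against 44.4%, 20.0% and 35.6% elsewhere. At a median of 5 or 6 reads a CpG's class is itself uncertain, and the shares that reading error alone would give were not worked out. These shares therefore cannot tell bins that mix high and low CpGs from bins of intermediate CpGs.

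The strands of the DNA gave like levels over the window, 52.9% (52.0 to 53.8) on Crick and 53.7% (52.8 to 54.6) on Watson. At 1174 CpGs of intermediate window bins both strands had been read and each was wholly methylated or wholly unmethylated. Both were methylated at 34.0% of them, both unmethylated at 34.8%, and the strands differed at 31.2%. Independent strands that all had the mean level of these CpGs would differ at 50%. In intermediate bins elsewhere the strands differed at 33.9%, against 40.3% on the same reckoning. These bins mix high and low CpGs, which by itself makes strands agree more often than that. Neither gap therefore measures agreement of the strands at a CpG. The 2 strands read at a CpG may come from different cells or alleles, which the merged counts cannot separate.

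RNA of the 59 clustered protocadherin genes was scarce in the wild-type tissues. Levels are given in FPKM (fragments per kilobase of transcript, scaled to the mapped fragments of a library), and levels of different genes can be compared because FPKM is per length. All 15 alpha and all 22 beta genes stayed under 1 FPKM in all 30 libraries, the highest values being 0.264 for alpha and 0.412 for beta. Pcdhb1 and Pcdhb18 were listed at 0 throughout. Of the 22 gamma genes, 7 reached 1 FPKM in a library. Alpha genes share constant exons with each other, as do gamma genes, so how reads were divided among members of an array is uncertain, and sums over an array are firmer than single genes. In bulk tissue, fewer expressing cells and less RNA per cell cannot be told apart.

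In E6.5 epiblast, the tissue of the methylation table, 12 of 15 alpha, 20 of 22 beta and 7 of 22 gamma genes were listed at 0 in both libraries. Summed levels were 0.197 and 0.194 FPKM for alpha, 0.0267 and 0.0213 for beta, and 3.52 and 3.02 for gamma. The 6 genes above 0 in both libraries were all gamma. Pcdhgc3, a C-type gamma isoform, stood at 0.898 and 0.757 FPKM, Pcdhga1 at 0.593 and 0.473, Pcdhga7 at 0.514 and 0.393, Pcdhga11 at 0.388 and 0.365, Pcdhgc5 at 0.195 and 0.184, and Pcdhga12 at 0.0703 and 0.124. The labelled tissue was checked on its markers: the 8 epiblast markers summed to 1133 and 1160 FPKM, against 390 and 404 in E6.5 visceral endoderm, and the 8 visceral endoderm markers to 3.27 and 19.0 against 5772 and 6310. By the limma fit described below, 6 of the 8 epiblast markers were higher in epiblast. Fgf5 (log2 difference -0.82) and Otx2 (-0.06) were not.

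The gamma sum differed between stages. It was at or under 0.332 FPKM in the 4 E3.5 libraries, 5.04 and 2.79 in E4.0 inner cell mass, 4.47 and 3.70 in E5.5 epiblast, and 1.55 and 2.00 in E5.5 visceral endoderm. It was 5.85 and 6.18 in E6.5 visceral endoderm and 6.49 and 4.85 in E7.5 ectoderm. The highest sums were in E7.5 primitive streak (18.7 and 17.7), mesoderm (14.03 and 17.5) and endoderm (10.3 and 10.4), and these 6 libraries were above all others. In the 8 cultured libraries it ran from 0.768 to 5.10.

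The share of Pcdhgc3 in the gamma sum varied between groups. Without it the sum was 7.05 and 11 FPKM in primitive streak, 7.59 and 9.39 in mesoderm and 5.13 and 5.55 in endoderm, while in E5.5 epiblast it was 3.72 and 3.70, close to the whole. Pcdhgc3 was listed at 0 in both libraries of E3.5 inner cell mass and at 0 and 0.0307 FPKM in trophectoderm, then at 1.59 and 1.76 in E4.0 inner cell mass. It stood at 0.743 and 0 in E5.5 epiblast, 0 and 1.09 in E5.5 visceral endoderm and 3.48 and 2.59 in E6.5 visceral endoderm. At E7.5 it was 2.70 and 2.21 in ectoderm, 11.6 and 6.68 in primitive streak, 6.44 and 8.11 in mesoderm and 5.17 and 4.90 in endoderm. In order of their means the highest groups were primitive streak, mesoderm and endoderm, the first pair overlapping, followed by E6.5 visceral endoderm and E7.5 ectoderm, which also overlapped. In culture it did not pass 0.532 FPKM.

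**Figure D5:**
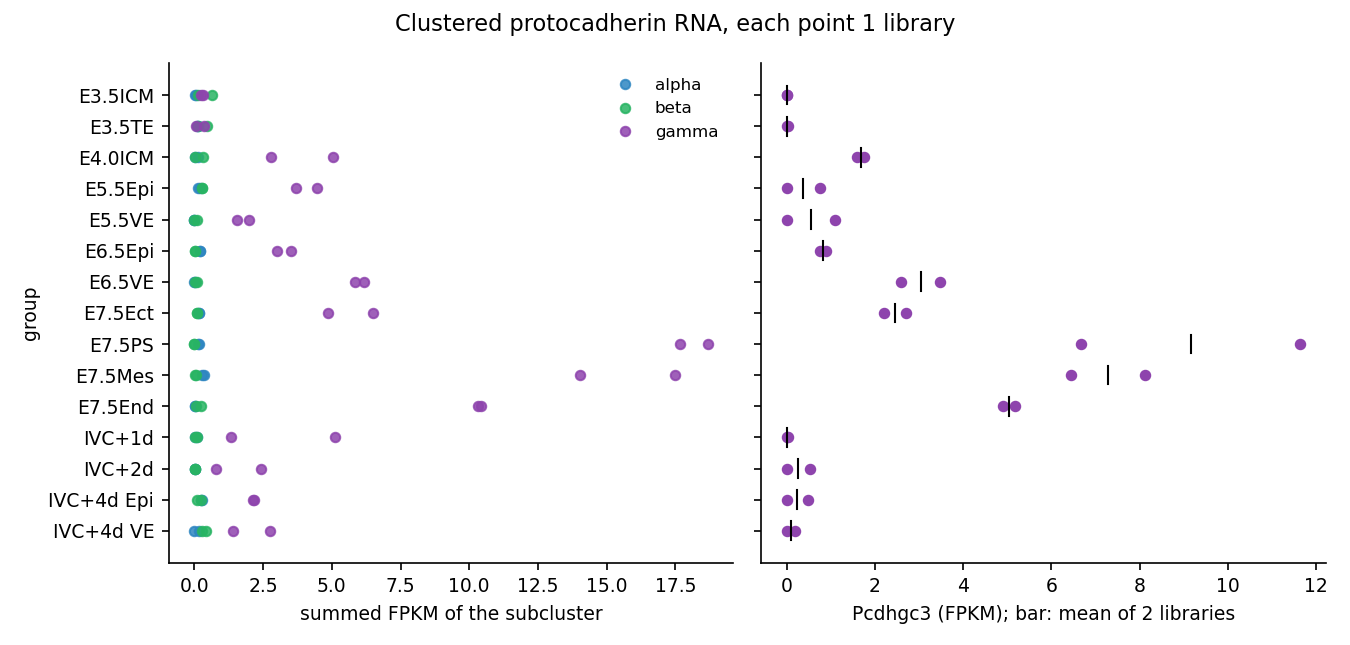
The left panel gives the summed FPKM of the alpha, beta and gamma genes in each library of 15 groups (rows), the right panel the FPKM of Pcdhgc3 with a bar at the mean of 2 libraries. Alpha and beta sums stay near 0, and gamma sums pass 10 FPKM only in primitive streak, mesoderm and endoderm at E7.5.

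The other genes with the highest means over all libraries were lower and less regular. Pcdhgb4 was highest in single libraries of E5.5 epiblast (2.95 FPKM, against 2.07e-05 in the other) and E5.5 visceral endoderm (1.55 and 0.903). Pcdhgc4 was highest in primitive streak (1.96 and 2.18 FPKM) and stood at 0 and 0.0652 in E6.5 epiblast. Pcdhga11 reached 0.818 and 1.62 FPKM in mesoderm, and Pcdhga12 0.985 and 1.73 in primitive streak. The alpha gene with the highest mean, Pcdhac2, was at most 0.264 FPKM, in mesoderm, and the corresponding beta gene, Pcdhb17, at most 0.412 FPKM, in a library of cultured visceral endoderm.

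Differences were tested with limma on log2(FPKM + 1), over 13493 genes with at least 1 FPKM in at least 2 of the 30 libraries, and a gene was called at a Benjamini-Hochberg adjusted p under 0.05 and at least 1 on the log2 scale. Only 5 of the 59 members passed the filter, all gamma: Pcdhga11, Pcdhga12, Pcdhgb4, Pcdhgc3 and Pcdhgc4. They passed through the groups where they are high, so their count is a description. The labels do not say whether the 2 libraries of a group come from separate embryos, so p-values measure the spread between libraries. Log2(FPKM + 1) differences understate the change of genes at this level.

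Between E4.0 inner cell mass and E5.5 epiblast, 1 of the 5 was called, against 17.6% of all genes tested. Pcdhgc3 was lower at E5.5 by limma (log2 difference -1.02 ± 0.34 SE, adjusted p = 0.037). The 2 E4.0 libraries were both above the 2 E5.5 libraries, of which 1 was listed at 0. Without that library (E5.5 epiblast replicate 2) the difference was -0.62 and no longer called, nor was it without E4.0 replicate 1 (-1.06) or replicate 2 (-0.97). It was not called either with a pseudocount of 0.1 (-2.61), with no filter or with only the 2 groups fitted, and without E5.5 epiblast replicate 1 Pcdhgb4 was called as well, as higher at E5.5. Of the 8 visceral endoderm markers, 4 also fell from E4.0 to E5.5 and 1 rose, the list summing to 144.9 and 57.6 FPKM at E4.0 and to 11.99 and 17.1 at E5.5, and their part was not tested. In E6.5 epiblast against E6.5 visceral endoderm, again 1 of 5 was called, against 16.5% of all genes. Pcdhgc3 was lower in epiblast (-1.14 ± 0.34 SE, limma adjusted p = 0.021), with the 2 libraries of each tissue apart. The call was lost when any 1 of these 4 libraries was left out, with differences from -1.30 to -0.98, and with a pseudocount of 0.1 (-1.75), where Pcdhgc4 was called in its place. All 8 visceral endoderm markers were also lower in epiblast, and their part in the Pcdhgc3 difference was not tested.

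Between E6.5 epiblast and E7.5 ectoderm, none of the 5 was called, against 1.07% of all genes tested. By limma 2 of the 5 had an unadjusted p under 0.05: Pcdhgc3 at 0.92 ± 0.34 SE (adjusted p = 0.31) and Pcdhga12 at 0.49 ± 0.20 SE (adjusted p = 0.40), both with higher values in ectoderm. In E7.5 ectoderm against the mean of primitive streak, mesoderm and endoderm, 1 of 5 was called, against 5.28% of all genes. Pcdhgc3 was lower in ectoderm (-1.19 ± 0.28 SE, limma adjusted p = 0.0076). Pcdhgc4, which reached 1 FPKM only in both primitive streak libraries and 1 endoderm library, stood at 0.351 and 0.189 in ectoderm. It was also lower there (-0.79 ± 0.15 SE, limma adjusted p = 0.0018), but under the log2 fold of 1 needed for a call. The median of all genes tested was itself shifted by -0.15 and -0.21 in the 2 comparisons with ectoderm. After quantile normalization Pcdhgc3 differed by -0.81 and was not called, and it was not called either without ectoderm replicate 2 (-1.09) or with a pseudocount of 0.1 (-1.45), where Pcdhgc4 was called in its place. These 2 comparisons share the E7.5 ectoderm libraries, and the first shares its E6.5 epiblast libraries with the comparison against visceral endoderm. All 5 mesoderm markers were also lower in ectoderm, summing to 19.7 and 3.99 FPKM there, 654 and 693 in primitive streak, 123 and 130 in mesoderm and 61.6 and 62.0 in endoderm. Of the 8 visceral endoderm markers 7 were lower in ectoderm, with sums of 1.66 and 2.01 FPKM there and 5611 and 5116 in endoderm. The part of either list in the Pcdhgc3 difference was not tested.

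Of 16 genes known for their part in DNA methylation or chromatin, 15 stood at 1 FPKM or more in both libraries of wild-type E6.5 epiblast, the exception being Tet2. Dnmt3b, a de novo DNA methyltransferase, stood at 181 and 168 FPKM, Dnmt3a at 65.1 and 71.8, and their cofactor Dnmt3l at 6.45 and 5.85. The maintenance methyltransferase Dnmt1 was at 37.1 and 31.4 FPKM and its partner Uhrf1 at 80.4 and 77.7. Smchd1 was at 14.6 and 16.5, Setdb1, a histone H3 lysine methyltransferase, at 30.6 and 27.3, and Wiz, a zinc finger protein that binds the G9a/GLP complex, at 3.72 and 3.85. Ctcf, the insulator protein, was at 14.002 and 14.9 FPKM. The cohesin genes Rad21, Smc1a and Smc3 were at 22.3 and 23.2, 38.8 and 32.8, and 63.4 and 56.9, and the cohesin loader Nipbl at 7.72 and 7.16. Of the Tet genes, Tet1 was at 8.82 and 6.88 FPKM, Tet3 at 1.22 and 1.42, and Tet2 at 0.0936 and 0.0550.

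All 16 genes of this list passed the filter. From E4.0 inner cell mass to E5.5 epiblast 2 rose (Dnmt3b by 3.34 and Dnmt1 by 1.08 on the log2 scale) and 2 fell (Tet2 by 3.44 and Dnmt3l by 2.15), beside 17.6% of all genes called in either direction. The list median was 0.40 against 0.05 for all genes tested. In E6.5 epiblast 3 were higher than in visceral endoderm: Dnmt3a (3.13 ± 0.87 SE), Dnmt3b (2.23 ± 0.52 SE) and Tet1 (1.30 ± 0.43 SE). That is 3 of 16, near the 16.5% of all genes called. There the list median was 0.54, against 0.06 for all genes. None of the 16 was called in either E7.5 comparison by limma; 4 had an unadjusted p under 0.05 against E6.5 epiblast and 1 against the other E7.5 tissues. Toward E7.5 ectoderm the list median was -0.51 against -0.15 for all genes.

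Protocadherins outside the clusters, single genes of the same family, served as a reference, and their distance from the window was not looked up. Of 12, 5 passed the filter, and in E6.5 epiblast Pcdh1 was the highest at 4.01 and 4.42 FPKM, above all 59 clustered genes there, followed by Pcdh18 at 1.98 and 1.78. From E4.0 to E5.5 Pcdh1 rose from 0 in both libraries to 4.06 and 2.42 FPKM. Pcdh7 was lower in E6.5 epiblast (0.164 and 0.249 FPKM) than in visceral endoderm (1.99 and 2.26). At E7.5, 3 of the 5 were called, all lower in ectoderm than in the mean of the other 3 tissues, beside 5.28% of all genes called (123 higher and 589 lower): Pcdh8 (-1.41 ± 0.19 SE), Pcdh19 (-1.38 ± 0.12 SE) and Pcdh18 (-1.13 ± 0.22 SE). As with the clustered genes, passing the filter depends on the groups where a gene is high, Pcdh8 passing mainly through its primitive streak and mesoderm libraries. The count of 3 of 5 is therefore a description, and the share of all genes is no test of it. Pcdh18 stood at 6.00 and 3.43 FPKM in ectoderm and at 23.3 and 20.5 in mesoderm.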

How the data were processed

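The members, gene lists and comparisons were chosen with earlier results of these data known. Reads were aligned to mm9, and the submitters' processing notes name BS-Seeker2, TopHat2 2.0.11 and Cufflinks 2.0.2. For methylation the authors deposited whole-number counts of methylated and unmethylated reads per CpG and strand, merged over 3 libraries, per the labels. Strand counts were added, and a bin's level is its methylated reads over all its reads. Bins with at least 5 covered CpGs were kept, and the expected level of a bin is the mean over bins elsewhere with the same covered CpG number.

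For RNA the authors deposited FPKM values in 3 tables, per the file headers, and no read counts were used, so depth is unknown. The tables share 22563 symbols; 27 lines of 1 table with date-like or repeated symbols were left out. Values at or below 1e-06 were set to 0. All 15 groups were fitted together with limma 3.58.1 (R 4.3.3, with a mean-variance trend) on log2(FPKM + 1). The tables were made separately, so levels across them are set side by side only. Both procedures were tested on simulated data. Apart from a planted difference, the simulated bins had 1 true level per CpG class and no correlation between neighbours. The simulation therefore does not cover the spread of real bins.

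Members named in the text are those called, the 6 with the highest mean FPKM and the highest of each array; bins named are the 10 least methylated, the 10 with the most covered CpGs (ties by reads) and each run of at least 2 bins under 20%. Pcdhga1, Pcdhgc5, Pcdhb1, Pcdhb18 and 3 further bins of over 40 CpGs were named after their values were seen. Replicate numbers were not taken to pair libraries. No sequences are printed. Alternatives are given in the closing section.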

Additional observations from a re-analysis of the deposited data

How the results depend on the processing

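Methylation. The matched difference stayed negative under all 12 alternatives. It was -13.1 points with at least 3 covered CpGs per bin, -16.5 with at least 10, -21.1 with at least 3 reads per CpG, -27.5 with at least 5, -14.6 as the mean of CpG levels, -17.0 on Crick and -18.7 on Watson reads alone, -9.74 against the flanks, and -15.4 with CpGs counted whether covered or not (an alternative chosen after seeing the data). The difference in the share of dense bins at 50% or more, -26.4 points, was -4.93 with at least 3 reads, -17.4 on Crick, -7.85 on Watson and -1.03 against the flanks. With CpGs counted whether covered or not, it was -33.3 points (39.4% of 160 window bins against 72.7% elsewhere). It turned to 25 with at least 5 reads (4 bins), 13.4 over 30 CpGs and 15.3 over 40 CpGs. Depth limits single bins to a few reads per CpG.

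Expression. With 1 gene called from E4.0 to E5.5, none was with a pseudocount of 0.1, with no filter or with only the groups compared, and 0 to 2 were when a library was left out. In E6.5 epiblast against visceral endoderm the count fell from 1 to 0 with any library left out, and a pseudocount of 0.1 called Pcdhgc4 in place of Pcdhgc3. In ectoderm against the other E7.5 tissues it was 0 after quantile normalization and 0 to 1 with a library left out. With the replicate number as a block the counts were 1, 1, 0 and 1, as without it. Deviations of same-numbered libraries correlated from -0.27 to 0.44 over 105 pairs of groups (median -0.0026), so the numbers were not read as pairing.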
